A study of Mus musculus with 16 samples.

Results

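The 35 genes described here are targets of the tumour suppressor p53 that act in apoptosis, DNA repair, cell cycle arrest, metabolism and signalling, outside the circuit formed by p53 with its inhibitors and the cell cycle inhibitor Cdkn1a. They were taken as a list of symbols, and all 35 were found among the 21887 protein-coding genes of chromosomes 1 to 19, X and Y of the mouse build GRCm38. A peak was assigned to a gene when it overlapped the gene, or the 5 kb on either side, by at least 1 bp. The genes are 1.61 to 97.9 kb long, with a median of 17.7 kb. Every count was set beside the share of 17991 other protein-coding genes of a length similar to at least 1 of the 35, the shorter of such a pair having at least 0.8 times the length of the longer.

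The study mapped chromatin in primary macrophages of C57BL/6 mice, grown from adult bone marrow for 5 days in medium containing M-CSF. EZH2 was immunoprecipitated from wild-type cells, either untreated or exposed to nigericin, an ionophore whose potassium efflux triggers the NLRP3 inflammasome, following priming with LPS. Libraries for p53, H3K27ac and H3K27me3 came from untreated wild-type cells, and SIRT1 was mapped in untreated cells labelled Ezh2-WT, Ezh2-KO, p53-WT and p53-KO. The wild-type and knockout cells of these pairs share strain, culture and lack of treatment, and how the knockouts were made is not given in the sources used here. In all, the 16 samples comprise 9 immunoprecipitations, each with its own peak list, and 7 inputs. Each group held 1 library, so no difference between conditions has a replicate check and no test was made.

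p53 is a transcription factor that is kept scarce in unstressed cells and accumulates after DNA damage and other stress, when it activates genes that stop the cell cycle, repair DNA or start apoptosis. EZH2 is the methyltransferase of Polycomb repressive complex 2 and writes H3K27me3, a mark of repressed genes. The same lysine carries H3K27ac at active promoters and enhancers, so a nucleosome tail cannot hold both. SIRT1 is a deacetylase that uses NAD and removes acetyl groups from histones and from p53 itself.

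The lists differ in how strictly they were made. Both histone lists hold only peaks with a q-value of at most 0.05, whereas the EZH2, p53 and SIRT1 lists were limited by a p-value of 0.01, and most of their peaks exceed that q. Only 1.16% of the p53 peaks and 0.320% to 2.88% of the SIRT1 peaks had a q of at most 0.05. The fragments counted at a summit, recovered from the listed fold and p-value, were at least 3 or 4 for SIRT1, 6 for p53, 7 for EZH2 and 9 for the histone marks. Intervals on them are exact Poisson 95% intervals and cover counting error only. Peak lists do not show whether Ezh2 or Trp53 was deleted, so the knockout labels were not checked here. All 10 macrophage marker genes, among them Csf1r, Adgre1 and Spi1, had H3K27ac, and so did 2 of 5 T cell, 2 of 5 B cell, 1 of 5 neutrophil, 1 of 5 stroma and 1 of 5 erythroid marker genes.

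H3K27ac was more frequent at the p53 targets than at other genes, and H3K27me3 was less frequent. H3K27ac was found at 20 of the 35 genes (57.1%), beside 39.9% of the other genes of similar length. Within the gene bounds alone, without the flanks, it was found at 14 (40%, beside 33.2%), so the difference was smaller there. H3K27me3 was found at 9 (25.7%), beside 37%, and without the flanks at 6 (17.1%, beside 28.9%). No gene had both marks, whereas 9.66% of the other genes did. Neither mark was found at 6 of the 35, beside 5899 of the 17991 other genes. EZH2 was found at 5 genes in untreated cells (14.3%, beside 14.6%) and at 2 after LPS and nigericin (5.71%, beside 9.73%). p53 itself was found at 2 (5.71%, beside 4.15%). The EZH2 and p53 counts in untreated cells were thus close to those of other genes. SIRT1 peaks were found at 30 genes in Ezh2-WT cells (85.7%, beside 71.6%) and at 16 in Ezh2-KO cells (45.7%, beside 38.6%). In p53-WT cells SIRT1 was found at 32 genes (91.4%, beside 66.3%), and in p53-KO cells at 25 (71.4%, beside 67.3%). Without the flanks, the p53-KO list had SIRT1 at 18 genes (51.4%, beside 54.6%), so its share was then below that of other genes. In the Ezh2-WT, Ezh2-KO and p53-WT lists the share without the flanks stayed above that of other genes.

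**Figure D1:**
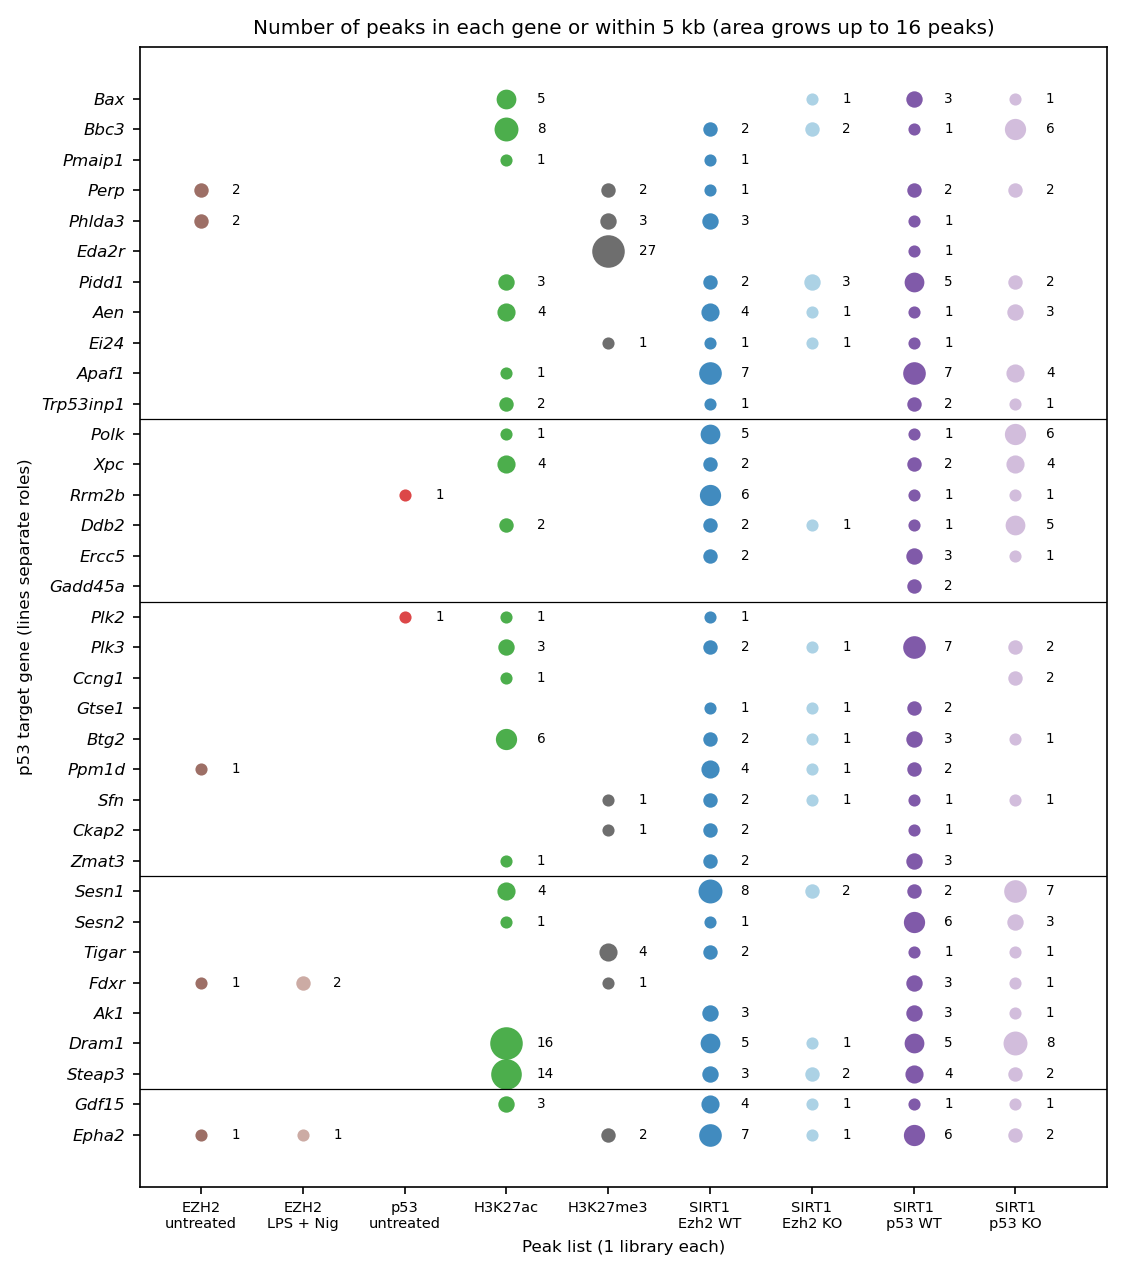
Number of peaks in each gene or within 5 kb of it, for the 35 p53 target genes (rows, grouped by role from apoptosis at the top to signalling at the bottom) and the 9 peak lists (columns, 1 library each). The circle grows with the number printed beside it, up to 16 peaks. No row has both an H3K27ac and an H3K27me3 circle, and Eda2r has 27 H3K27me3 peaks.

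**Figure D2:**
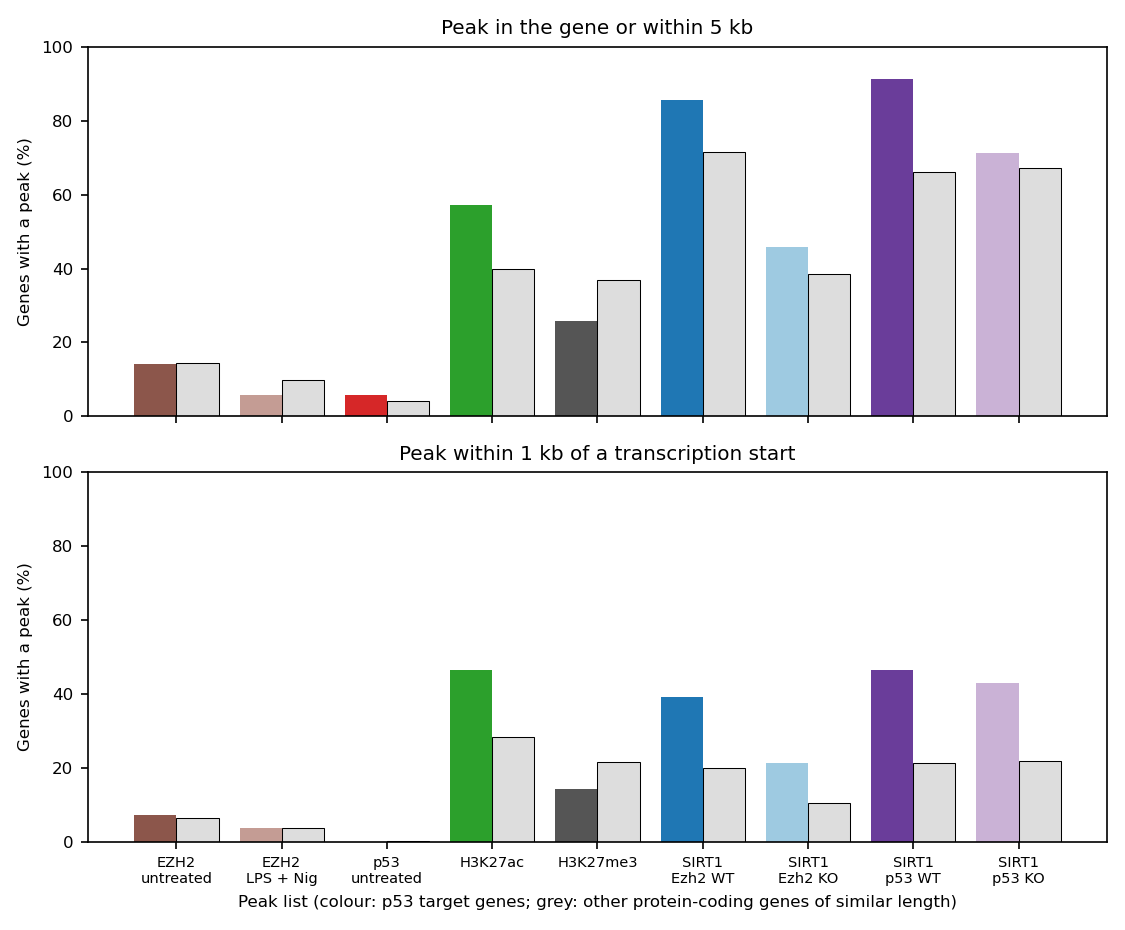
Share of genes (%) with a peak in the gene or within 5 kb (top) and within 1 kb of a transcription start (bottom) in each of the 9 lists, for the p53 target genes (colour) and other protein-coding genes of similar length (grey). The coloured H3K27ac and SIRT1 bars exceed the grey ones in both panels, and the H3K27me3 bar is shorter than its grey one.

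The first question is where p53 lay at its own targets in resting cells. The genes with a p53 peak were Rrm2b, which encodes the p53-inducible subunit of ribonucleotide reductase that supplies nucleotides for DNA repair, and Plk2, a polo-like kinase. The Rrm2b peak (chr15:37923359-37923788) lay just outside the lower end of the gene, with 3.06-fold enrichment over background and 8 fragments at the summit (3.45 to 15.8). The Plk2 peak (chr13:110401156-110401499) lay downstream of the gene, 6340 bp from its start, with 2.72-fold enrichment and 7 fragments (2.81 to 14.4). The whole p53 list has a median fold of 2.72, so neither peak differed from it by more than its counting error. Both had a listed q of 1, and neither overlapped a peak of any other list. None of the 28 genes with a listed start had p53 within 1 kb of it, beside 0.265% of the other genes. The apoptosis genes Bax, Bbc3 (PUMA), Pmaip1 (NOXA), Perp and Apaf1 had no p53 peak in their windows, nor had the sestrin genes Sesn1 and Sesn2 or the growth arrest genes Btg2 and Gadd45a.

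p53 binds DNA at pairs of a 10-base half-site. RefSeq promoters, from 250 bases before to 50 bases after each listed start on GRCm38.p6, were matched by symbol for 28 of the 35 genes, which have 41 starts; Trp53inp1, Zmat3, Ddb2, Xpc, Rrm2b, Pmaip1 and Perp had no entry. An exact p53 half-site, which reads the same class of bases on both strands, was present in 11 of these 41 promoters (26.8%), in 10 genes: Aen, Bax, Ccng1, Ckap2, Ei24, Gadd45a, Gtse1, Polk, Ppm1d and Sesn1. The Aen site was counted in 2 promoters, since the windows of its starts overlap. The half-site was present in 7.34% of the 21222 promoters of other protein-coding genes and in 8.36% of all 32851 promoters of that table. Pairs of exact half-sites with a spacer of up to 13 bases were found in none of the 41 and in 0.0471% of the other protein-coding promoters. Members' promoters had a median GC content of 60%, beside 56.3%, and a median CpG ratio of observed to expected of 0.721, beside 0.567.

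Shown are the stretches around the half-site (in capitals) at Ccng1 and Gadd45a, where a peak lay over it, and at Ei24 and Ckap2, whose half-site has CATG at its centre. Each of these 4 genes has 1 listed start, and the stretches are written 5′ to 3′ on the strand of the gene and lie before that start.
Ccng1: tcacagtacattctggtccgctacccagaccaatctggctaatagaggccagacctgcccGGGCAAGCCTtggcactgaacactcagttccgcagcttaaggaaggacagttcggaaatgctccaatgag
Gadd45a: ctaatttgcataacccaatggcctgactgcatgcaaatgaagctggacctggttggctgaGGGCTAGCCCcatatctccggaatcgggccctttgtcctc
Ei24: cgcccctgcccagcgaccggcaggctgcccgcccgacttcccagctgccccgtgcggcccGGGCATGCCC
Ckap2: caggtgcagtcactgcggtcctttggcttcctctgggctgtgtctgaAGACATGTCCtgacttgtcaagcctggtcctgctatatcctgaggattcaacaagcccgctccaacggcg

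The Ccng1 stretch is chr11:40755402-40755531 on the minus strand. Over its half-site, 185 bases before the start of this cyclin G1 gene, lay a SIRT1 peak of the p53-KO list (3.75-fold, 6 fragments). The Gadd45a stretch is chr6:67037408-67037507 on the minus strand, and a SIRT1 peak of the p53-WT list (2.90-fold, 4 fragments) covered its half-site at 40 bases before the start. Gadd45a encodes a DNA damage protein of growth arrest and repair. The Ei24 stretch (chr9:36797335-36797404, minus strand) has its half-site directly at the start of a gene for a membrane protein of the endoplasmic reticulum, and the Ckap2 stretch (chr8:22185953-22186069, minus strand) 203 bases before that of a mitotic spindle protein. No peak covered either. At Aen, which encodes a nuclease that degrades DNA in apoptosis, the half-site lies 10 bases after the first listed start and 121 bases before the second, and SIRT1 peaks of the Ezh2-KO list (3.10-fold, 5 fragments) and the p53-KO list (2.76-fold, 4 fragments) lay over it. No p53 peak lay over any of these half-sites.

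H3K27ac marked 7 of the 11 apoptosis genes, 3 of the 6 repair genes, 5 of the 9 cell cycle genes, 4 of the 7 metabolic genes and Gdf15 of the 2 signalling genes. The 5 genes with the highest fold were Steap3 (8.48), Plk3 (5.90), Xpc (5.57), Pidd1 (5.46) and Aen (5.27). Steap3 encodes a ferrireductase of iron uptake. It held 14 H3K27ac peaks covering 31755 bp of its window, its top peak (chr1:120250590-120257828) lay inside the gene with 51 fragments (38.0 to 67.1), and the peak at its start reached 3.28-fold. Dram1, a lysosomal regulator of autophagy, held 16 peaks covering 16650 bp, with 5.24-fold enrichment upstream and 3.45-fold at its start. These 2 genes carried the most H3K27ac peaks of the 35.

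The top peaks of the other 4 leading genes lay within 1 kb of a neighbour's start. For Plk3, a polo-like kinase, the top peak (chr4:117123285-117129504, 88 fragments) reached the starts of Btbd19 and Tctex1d4. A further peak inside Plk3, away from other listed starts, had 5.37-fold with 33 fragments, and the peak at its own start had 3.04-fold. For Xpc, which recognises DNA damage for nucleotide excision repair, the top peak (chr6:91489566-91493374, 26 fragments) lay near the start of Gm52912. For Pidd1, the scaffold of the PIDDosome that activates caspase-2, it (chr7:141434641-141437399, 54 fragments) lay near that of Slc25a22. For Aen it (chr7:78911701-78915725, 62 fragments) lay near that of Isg20, and the peak at the start of Aen had 2.42-fold. In all, the top H3K27ac peak was within 1 kb of another gene's start at 9 of the 20 genes. At Ddb2, Pmaip1, Trp53inp1 and Zmat3, none of which has a listed start, the mark was found only in the flanks. It lay within 1 kb of the lower gene end at Trp53inp1 (3.11-fold) and Ddb2 (2.40-fold).

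Within 1 kb of a transcription start, H3K27ac was present in 13 of the 28 genes with a listed start (46.4%, beside 28.3% of the other genes). A gene counted when any of its starts had a peak. The 28 genes have 41 starts, and 17464 other protein-coding genes have 21222, and the part of this in the shares was not tested. Among the peaks reaching the 1 kb window, the highest fold was at Gdf15, a stress cytokine of the TGF-beta family (5.21-fold, 67 fragments). Folds are taken at the summit, which at Gdf15 lay 2480 bp from the nearest start. Second was Polk, a DNA polymerase that copies past damaged bases (5.15-fold, 84 fragments). The Gdf15 peak was 10104 bp wide and also covered the start of Gm34154. The Polk peak lay outside Polk and over the neighbouring gene Cert1, within 1 kb of its start. Next in order came Bbc3 (3.76-fold, 44 fragments), Dram1 (3.45-fold), Btg2 (3.36-fold, summit 1261 bp from the start) and Steap3 (3.28-fold). Plk3 (3.04-fold), Bax (2.95-fold, 49 fragments) and Apaf1 (2.78-fold, 41 fragments, near the start of Ikbip as well) followed. Bbc3 and Bax encode activators of mitochondrial apoptosis, Apaf1 the core of the apoptosome, and Btg2 an antiproliferative protein. Inside Bbc3 a further peak reached 4.89-fold with 108 fragments (88.6 to 130). The lowest values were 2.49-fold at Plk2, 2.42-fold at Aen, 2.23-fold at Ccng1 and 1.99-fold at Sesn1, which encodes a sestrin, a stress inhibitor of mTORC1. Per 100 kb of window the 35 genes held 6.88 H3K27ac peaks, beside 4.22 in the other genes.

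H3K27me3 was found in the windows of 9 genes, and the amount differed widely among them. At 3 of them, Tigar, Ei24 and Ckap2, the mark lay only in the flanks. Epha2, a receptor tyrosine kinase for ephrins, lay in 2 broad peaks (chr4:141295344-141319876 and chr4:141320328-141341977) of 8.83-fold and 12.5-fold, with 50 and 63 fragments. Eda2r, an ectodysplasin receptor of the TNF receptor family on chromosome X, held 27 separate peaks covering 25951 bp along its gene and flanks, of 2.47-fold to 6.18-fold. Fdxr, the ferredoxin reductase of mitochondria, was touched at its downstream end by a peak of 21485 bp (chr11:115248352-115269836, 11.6-fold, 46 fragments) that covered the start of Grin2c. At Tigar, a phosphatase that lowers glycolysis, the top peak (chr6:127071520-127081110, 7.41-fold, 29 fragments) lay downstream over the start of Fgf23, and the other 3 reached up to 3.21-fold.

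The remaining 5 genes with H3K27me3 carried narrower peaks. Perp, a desmosome protein that takes part in p53-dependent apoptosis, had 2 peaks at its lower end of 5.19-fold and 4.74-fold. Phlda3, an inhibitor of AKT, had 3 of 3.46-fold, 3.37-fold and 3.22-fold. Sfn, the 14-3-3 sigma protein that holds cells in G2, had 1 of 3.48-fold (chr4:133600897-133602526, 27 fragments) over its start. Ei24 and Ckap2 had a small peak upstream of the gene only, of 2.71-fold and 2.52-fold. Within 1 kb of a start the mark was present in 4 of 28 genes (Phlda3, Eda2r, Sfn and Epha2, 14.3%, beside 21.6%). By role the mark was found at 4 of 11 apoptosis, 0 of 6 repair, 2 of 9 cell cycle, 2 of 7 metabolic and 1 of 2 signalling genes. Rrm2b, Ercc5, Gadd45a, Gtse1, Ppm1d and Ak1 had neither mark. Ercc5 encodes a nuclease of excision repair, Ppm1d a phosphatase that switches off p53 signalling, and Ak1 an adenylate kinase.

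EZH2 in untreated cells was found at Epha2, Fdxr, Perp, Phlda3 and Ppm1d, and 4 of these genes also had H3K27me3. Of their 7 EZH2 peaks, 5 overlapped H3K27me3 (71.4%, beside 72.0% of the EZH2 peaks at other genes), and none overlapped H3K27ac. Epha2 had the peak with the most fragments (chr4:141301206-141302437, 2.67-fold, 29 fragments, 19.4 to 41.6), which covered the start of the gene. The Fdxr peak (chr11:115265596-115267727, 2.69-fold, 26 fragments) lay over the start of Grin2c. Perp had peaks of 3.19-fold (14 fragments) and 2.39-fold (8 fragments). These 3 genes were the ones with an EZH2 peak of q at most 0.05. Phlda3 had peaks of 2.32-fold (10 fragments) and 2.06-fold (15 fragments) within 1 kb of its start, the second covering it, and Ppm1d had one of 2.67-fold (9 fragments) inside the gene, 32076 bp from the start and outside both marks. Near starts, EZH2 was found at Phlda3 and Epha2 (2 of 28, 7.14%, beside 6.3%). Eda2r, Tigar, Sfn, Ei24 and Ckap2 had H3K27me3 with no EZH2 peak in their windows.

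The comparison of untreated cells with cells given LPS and nigericin asks how EZH2 differed at these genes when the inflammasome was activated. EZH2 peaks were listed at Epha2 and Fdxr in both conditions. The Epha2 peaks overlapped, with 2.67-fold and 29 fragments (19.4 to 41.6) untreated and 2.59-fold and 22 fragments (13.8 to 33.3) after treatment, so their folds were nearly equal and their intervals overlapped. At Fdxr the treated list had peaks of 2.90-fold (14 fragments) and 1.79-fold (20 fragments), the second overlapping the untreated peak of 2.69-fold. Perp, Phlda3 and Ppm1d had a peak in the untreated list only (3 of 35, 8.57%, beside 8.22% of the other genes), and no gene had one in the treated list only (beside 3.39%). The treated list is the shorter one, with 5128 peaks against 9771. The share at the start was 3.57% after treatment (Epha2 alone, beside 3.79%). At a q of at most 0.05 the counts were 3 genes untreated (8.57%, beside 5.65%) and 0 treated (beside 2.46%). At that q the whole lists held 1746 and 761 peaks.

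SIRT1 peaks were spread over nearly all of the 35 genes, but each rested on 3 to 8 fragments. Peaks were present in all 4 SIRT1 lists at 12 genes (34.3%, beside 25.1% of the other genes), in 3 lists at 14 (40%, beside 30.0%), in 2 at 4 (11.4%, beside 20%) and in 1 at 5 (14.3%, beside 13.6%). Those with SIRT1 in 1 list were Eda2r, Pmaip1, Plk2, Gadd45a and Ccng1, and no gene had it in none, beside 11.3%. By the sum of fragments over the lists, the leading genes were Apaf1 (18 peaks, 83 fragments), Sesn1 (19 peaks, 83 fragments), Dram1 (19 peaks, 74 fragments), Epha2 (16 peaks, 73 fragments), Pidd1 (12 peaks, 59 fragments) and Polk (12 peaks, 58 fragments). Apaf1 and Sesn1 are also the longest of the 35, at 93.4 and 97.9 kb. Bbc3 (11 peaks), Plk3 (12 peaks), Steap3 (11 peaks) and Aen (9 peaks) came next, and Plk3 reached its number in a gene of 5.31 kb. Per 100 kb of window the 35 genes held 7.47 and 7.13 SIRT1 peaks in the Ezh2-WT and p53-WT lists, beside 5.12 and 4.30 in the other genes, and 1.78 and 5.77 in the Ezh2-KO and p53-KO lists, beside 1.58 and 4.55.

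In windows with H3K27ac, SIRT1 was about as frequent as in other genes with that mark. Of the 20 such genes, 18 had SIRT1 in Ezh2-WT cells (90%, beside 84.6%), 11 in Ezh2-KO cells (55%, beside 52.3%), 17 in p53-WT cells (85%, beside 82.5%) and 17 in p53-KO cells (85%, beside 85.3%). All 9 genes with H3K27me3 and all 6 genes with neither mark had SIRT1 in the p53-WT list, beside 62.7% and 49.6% of the other genes in those states. In the Ezh2-WT, Ezh2-KO and p53-KO lists SIRT1 was found at 7, 3 and 5 of the 9 (beside 69.7%, 33.6% and 62.0%) and at 5, 2 and 3 of the 6 (beside 57.4%, 26.0% and 49.9%). The SIRT1 peaks themselves lay over H3K27ac in 20.5%, 33.3%, 23.8% and 29.4% of cases in the Ezh2-WT, Ezh2-KO, p53-WT and p53-KO lists, beside 13.8%, 19.3%, 16.1% and 17.1% at other genes. Over H3K27me3 lay 10, 1, 10 and 3 peaks (11.4%, 4.76%, 11.9% and 4.41%, beside 10.8%, 10.7%, 10.7% and 9.09%), so the wild-type shares were near those of other genes. Those of the Ezh2-WT list were at Epha2, Phlda3 and Sfn.

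SIRT1 within 1 kb of a start was found in 11 of 28 genes in Ezh2-WT cells (39.3%, beside 20%), in 6 in Ezh2-KO cells (21.4%, beside 10.6%), in 13 in p53-WT cells (46.4%, beside 21.3%) and in 12 in p53-KO cells (42.9%, beside 21.9%). Polk, Sfn, Sesn2 and Btg2 had it in 3 of these lists, and Dram1 in all 4. At Sfn, whose start lies in H3K27me3, the Ezh2-WT, p53-WT and p53-KO lists had peaks of 2.20-fold, 2.32-fold and 4.96-fold there. The share at starts was thus higher than at other genes in each of the 4 lists, as was that of H3K27ac. The part of H3K27ac in this, and that of the number of starts per gene, was not tested.

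**Figure D3:**
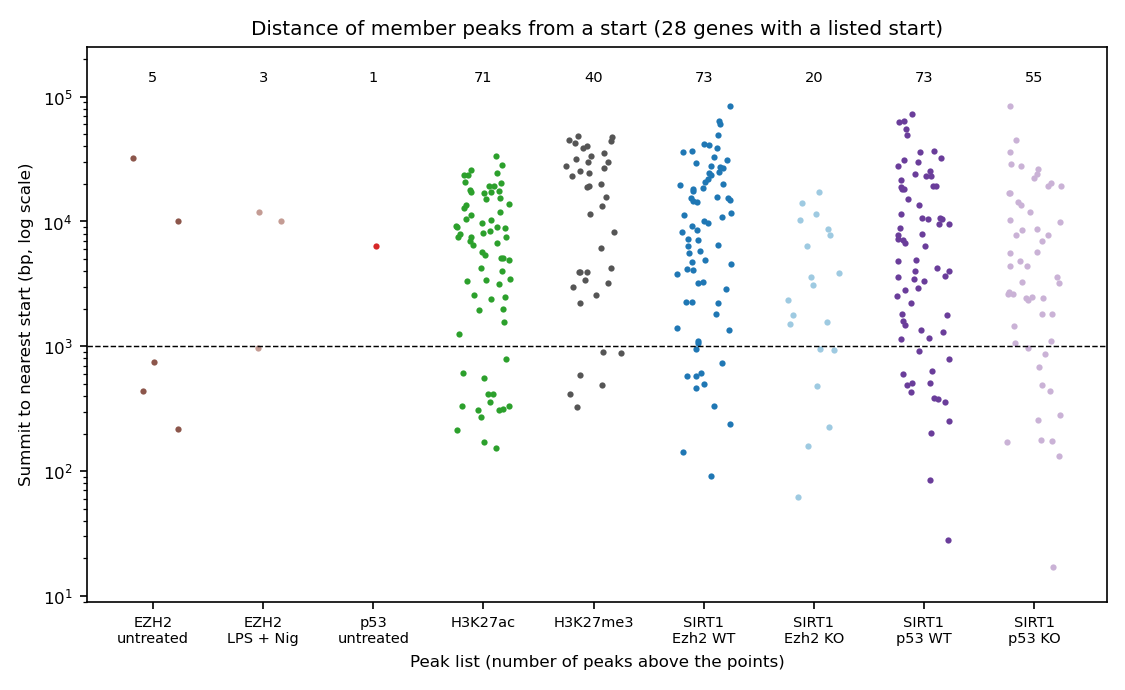
Distance in bp (log scale) from each peak's summit to the nearest listed start of its gene, for the 28 p53 target genes with a listed start, in the 9 lists; the number of peaks stands above each column and the dashed line marks 1 kb. Most points lie above the line: the median is 6919 bp for H3K27ac, 9235 bp for SIRT1 in Ezh2-WT cells and 6340 bp for the p53 peak.

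SIRT1 in Ezh2-KO against Ezh2-WT cells addresses whether SIRT1 placement differed without EZH2. SIRT1 was listed at 15 genes in both (42.9%, beside 33.0% of the other genes). It was listed at 15 in wild type only (42.9%, beside 38.5%) and at Bax in the knockout only (2.86%, beside 5.51%). The wild-type-only genes were Pmaip1, Perp, Phlda3, Apaf1, Trp53inp1, Polk, Xpc, Rrm2b, Ercc5, Plk2, Ckap2, Zmat3, Sesn2, Tigar and Ak1. Apaf1, with 7 peaks in wild type, had none in the knockout, and Polk had 5 and 0. Overlapping peaks of the 2 lists were found at Btg2, Dram1 and Sesn1 only, 3 of 88 wild-type peaks (3.41%, beside 2.53%) and 3 of 21 knockout peaks (14.3%, beside 8.57%).

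The lists differ in length, with 74767 peaks in wild type and 18170 in the knockout, and the weakest knockout peak has 4 fragments where the weakest wild-type peak has 3. With peaks of at least 4 fragments in each, SIRT1 was found at 28 and 16 genes (80% and 45.7%, beside 64.7% and 38.6%). With each list held to its 5068 strongest peaks, it was found at 7 and 9 genes (20% and 25.7%, beside 13.3% and 14.2%). Of these, 5 were in wild type only and 7 in the knockout only, so the direction turned. The other genes turned likewise, with 10.1% in wild type only and 10.9% in the knockout only. At a q of at most 0.05 it was found at 0 wild-type genes (beside 0.550%) and at Pidd1 and Ei24 in the knockout (5.71%, beside 1.53%). Those knockout peaks, inside Pidd1 (chr7:141440820-141441139, 4.85-fold) and 484 bp from the start of Ei24 (chr9:36796742-36797009, 4.85-fold), had 8 fragments each (3.45 to 15.8).

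For p53-KO against p53-WT cells, SIRT1 was listed at 24 genes in both (68.6%, beside 52.6% of the other genes). It was listed at 8 in wild type only (22.9%, beside 13.7%), namely Phlda3, Eda2r, Ei24, Gadd45a, Gtse1, Ppm1d, Ckap2 and Zmat3, and at Ccng1 in the knockout only (2.86%, beside 14.7%). The 8 genes had 1 to 3 peaks each in wild type. The p53-KO list had more peaks than the p53-WT list at Bbc3 (6 and 1), Polk (6 and 1), Sesn1 (7 and 2), Ddb2 (5 and 1) and Dram1 (8 and 5), and fewer at Plk3 (2 and 7), Epha2 (2 and 6), Apaf1 (4 and 7) and Pidd1 (2 and 5). Overlapping peaks were found at Bbc3, Dram1, Epha2 and Pidd1, 4 of 84 wild-type peaks (4.76%, beside 6.65%) and 4 of 68 knockout peaks (5.88%, beside 6.25%). With the 5068 strongest peaks of each list, SIRT1 was found at 10 genes in each (28.6%, beside 14.5% in wild type and 14.7% in the knockout). Of these, 7 were in either alone (20%, beside 10.8% in wild type only and 11.0% in the knockout only). At a q of at most 0.05 it was found at 0 genes in wild type (beside 0.495%) and at Sfn in the knockout (2.86%, beside 0.995%). The Sfn peak (chr4:133601033-133601418) had 4.96-fold enrichment and 8 fragments.

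The 2 wild-type SIRT1 libraries, which carry the same genotype and treatment labels, give a measure of how far such lists differ without a deletion. SIRT1 was listed at 28 genes in both (80%, beside 54.8% of the other genes). It was listed at Pmaip1 and Plk2 in the Ezh2-WT list only (5.71%, beside 16.8%). In the p53-WT list only it was listed at Bax, Eda2r, Gadd45a and Fdxr (11.4%, beside 11.5%). Of the 88 peaks of the Ezh2-WT list, 11 (12.5%, beside 5.52%) overlapped the p53-WT list, and of the 84 peaks of the p53-WT list, 12 (14.3%, beside 6.68%) overlapped the Ezh2-WT list. Individual SIRT1 peaks at these genes therefore differed between wild-type libraries in most cases. In numbers per gene, Sesn1 had 8 and 2, Sesn2 1 and 6, Plk3 2 and 7, and Apaf1 7 and 7.

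**Figure D4:**
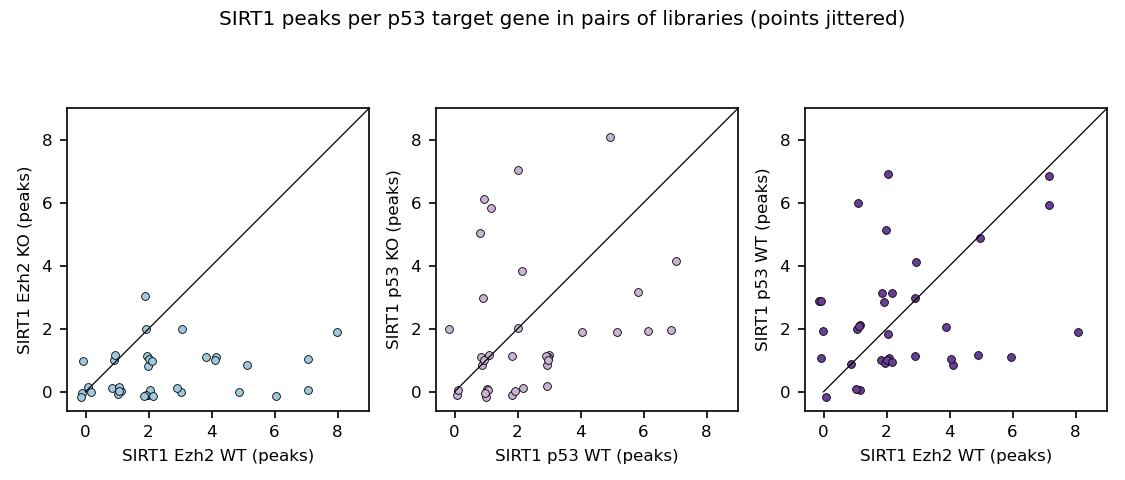
SIRT1 peaks per gene for the 35 p53 target genes in 3 pairs of libraries: Ezh2-WT and Ezh2-KO (left), p53-WT and p53-KO (middle), and both wild-type libraries (right), with points shifted slightly so that equal values stay visible and a line of equal numbers. Most points of the left panel lie below the line, and those of the other panels lie on both sides, as for Sesn1 with 8 and 2 peaks in the wild-type libraries.

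Places where SIRT1 peaks from 3 lists formed a run were found at 5 of the 35 genes (14.3%, beside 4.01% of the other genes): Polk, Sesn1, Sesn2, Dram1 and Pidd1. In a run each peak overlapped another, but the 3 lists need not share a base. At Polk and Sesn2, for example, the p53-WT and p53-KO peaks were joined only through the Ezh2-WT peak. None had all 4. All 5 genes have H3K27ac in their windows, and among genes with that mark the shares were 25% and 6.71%. At Polk the peaks lay within 1 kb of the start, outside Polk and over Cert1. They had 4.40-fold (7 fragments) in Ezh2-WT, 3.94-fold (6 fragments) in p53-WT and 3.31-fold (5 fragments) in p53-KO cells. At Sesn2, a sestrin like Sesn1, they lay at the start with 2.70-fold, 2.32-fold and 2.21-fold. Dram1 had one such place at its start and another inside the gene, Sesn1 one inside the gene (chr10:41872860-41873408), and Pidd1 one downstream near Slc25a22.

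Another 20 genes of the p53 pathway (regulators such as Mdm2, Mdm4 and Atm, cofactors such as Ep300, and targets such as Cdkn1a, Fas and Rps27l) were examined in the same windows. They are set beside protein-coding genes of all lengths, since the comparison genes were chosen by the lengths of the 35. H3K27ac was found at 12 of the 20 (60%, beside 37.3%), H3K27me3 at 7 (35%, beside 35.9%) and p53 at 2, Hipk2 and Cdkn1a (10%, beside 6.45%). EZH2 was found at 2 in untreated cells (10%, beside 16.7%) and at 6 after LPS and nigericin (30%, beside 10.6%). SIRT1 was found at 19, 12, 18 and 16 of them in Ezh2-WT, Ezh2-KO, p53-WT and p53-KO cells (95%, 60%, 90% and 80%, beside 69.1%, 38.3%, 64.0% and 65.0%). Hipk2, Crebbp and Cdkn1a had both H3K27 marks in their windows, as did 9.66% of the comparison genes of the 35. The 20 were not matched by length, and the part of gene length in these shares was not tested.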

How the data were processed

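Chromatin immunoprecipitates of 9 libraries were sequenced beside 7 inputs; the sources used here do not give which input served which library. The submitters' processing notes name MACS2, deepTools and the build GRCm38/mm10, and the versions and the aligner were not given in the sources used here. Each deposited list, 1 per library, holds for each peak a fold ratio at the summit over background (each plus 1), −log10 p- and q-values, and a score of 10 times a −log10 value. From the values, histone lists were limited at a q of 0.05 and the others at a p of 0.01. Total depth is unknown.

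Fragments at each summit were solved from the deposited fold and p under a Poisson model and were whole within 0.0001 for at least 99.96% of peaks per list. Peaks on 21 chromosomes were joined to RefSeq gene bounds (GRCm38) with 5 kb flanks; starts came from the RefSeq promoter table, and gene ends served for 7 genes without an entry. Python 3.11.15, pandas 2.3.3 and scipy 1.17.1 were used, and the overlap code was tested on simulated data. The genes, roles, marker lists and the rule for named genes (all 35, in full those with p53, EZH2 or H3K27me3 peaks, the 5 highest H3K27ac folds and the 10 with most SIRT1 fragments in 3 or 4 lists) were chosen with earlier results of these data known. With 1 library per group no test was made. Alternatives were 5 planned settings (q at most 0.05, no flanks, summits only, lists of equal length, regions shared by 7 lists removed), other comparison genes, and at least 4 SIRT1 fragments, chosen after seeing the data.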

Additional observations from a re-analysis of the deposited data

How the results depend on the processing

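Depth limits these counts: SIRT1 peaks of 3 to 8 fragments and p53 peaks of 7 and 8 carry wide counting intervals, and read totals are unknown. Summits in place of peaks, and removal of regions shared by the 7 EZH2, p53 and SIRT1 lists, left each of 15 counts within 1.5 times. Of 83 recomputed counts, 25 moved further. At a q of at most 0.05, genes with a peak numbered 3 for EZH2 untreated, 0 for EZH2 treated and 0 for p53. Beside them stood 5.65%, 2.46% and 0.106% of the other genes. For SIRT1 they numbered 0, 2, 0 and 1 in Ezh2-WT, Ezh2-KO, p53-WT and p53-KO cells (beside 0.550%, 1.53%, 0.495% and 0.995%). Wild-type-only genes numbered 0 in both SIRT1 pairs (beside 0.472% for Ezh2 and 0.422% for p53) and Ezh2-KO-only genes 2 (beside 1.46%). Without flanks, EZH2 treated had 1 gene (beside 7.25% of the other genes) and p53 had 0 (beside 3.11%). SIRT1 in p53-KO cells then had 18 genes, within 1.5 times, but its share turned from above to below that of other genes (51.4%, beside 54.6%). Ezh2-KO-only genes then numbered 2 (beside 6.35%) and p53-KO-only genes 3 (beside 16.6%). With the 5068 strongest peaks of each list, genes with a peak numbered 9 for H3K27ac, 4 for H3K27me3, and 7, 9, 10 and 10 for SIRT1. The H3K27ac and H3K27me3 shares were then 25.7% and 11.4%, beside 13.6% and 14.5% of the other genes. Ezh2-WT-only genes numbered 5, Ezh2-KO-only 7 and p53-KO-only 7. With at least 4 fragments, chosen after seeing the data, Ezh2-KO-only genes numbered 2 (beside 7.80%) and p53-KO-only genes 3 (beside 17.5%). The cause was not tested beyond fewer peaks entering. The share of other genes with EZH2 in untreated cells was 13.9% with length classes weighted as in the 35, and with p53 6.45% over all lengths, each crossing the share of the 35. No paired analysis was possible because each group holds 1 library.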
